A study of Homo sapiens with 4 samples.

Results

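The atypical protein kinase C paralog PRKCZ and 4 genes for partners of atypical protein kinase C (PARD3, PARD6A, PARD6B and SQSTM1) were examined for DNA methylation in C42B cells, a human prostate cancer line that descends from LNCaP and grows without androgen. Methylated DNA was captured with an antibody against 5-methylcytosine and sequenced (MeDIP-seq), and a peak is a stretch where captured fragments were enriched over background. The members were the peaks that overlapped the hg19 span of each gene with about 5 kb on each side. They numbered 257 of 261657 peaks in the control list and 286 of 296521 in the knockout list. The control cells carried the guide sgC, labelled WT, and the knockout cells, labelled PKCl/i KO, the guide sgPKCl/i against PKCλ/ι, the atypical kinase encoded by PRKCI. All cells were untreated and were harvested 48 h after plating at about 70% confluency. Each genotype had 1 input and 1 immunoprecipitated library, and whether the knockout cells were a single clone or a pool was not given in the sources used here. No difference below therefore has a replicate check, no test between genotypes was made, and the intervals cover counting error or the scatter among peaks of these libraries only.

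Atypical protein kinases C lack the calcium and diacylglycerol sensing of their relatives and are steered by scaffolds. In epithelial cells PAR6 proteins bind the kinase and, with PAR3 and the small GTPase CDC42, form the complex that sets up apical identity and tight junctions. The scaffold p62, encoded by SQSTM1, binds the same kinases in signalling and also delivers cargo to autophagy. In vertebrate genomes CpG-rich start sites are usually free of methylation, whereas the bodies of genes are commonly methylated. MeDIP reads methylated cytosines in CpG-dense DNA more readily than in CpG-poor DNA, so levels at different places are not shares of methylated molecules.

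The start windows of 3 of the 5 genes matched the RefSeq table of GRCh38.p14, which held 8 windows for PRKCZ, PARD6A and SQSTM1. PRKCZ had 4 starts and SQSTM1 had 3, so a gene body may hold further promoters. The 250 bases before a start are shown for the windows on which the promoter results below turn, 5′ to 3′ on the plus strand, with each CpG in capitals. They are the reference sequence, not reads of these cells.
PRKCZ start 1 (chr1:2050161-2050410): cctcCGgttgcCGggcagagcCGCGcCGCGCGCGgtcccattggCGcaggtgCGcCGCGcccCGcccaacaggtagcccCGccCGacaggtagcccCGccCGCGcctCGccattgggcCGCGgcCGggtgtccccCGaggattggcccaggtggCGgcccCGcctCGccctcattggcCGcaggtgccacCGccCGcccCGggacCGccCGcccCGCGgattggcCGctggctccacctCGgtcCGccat
PRKCZ start 2 (chr1:2073414-2073663): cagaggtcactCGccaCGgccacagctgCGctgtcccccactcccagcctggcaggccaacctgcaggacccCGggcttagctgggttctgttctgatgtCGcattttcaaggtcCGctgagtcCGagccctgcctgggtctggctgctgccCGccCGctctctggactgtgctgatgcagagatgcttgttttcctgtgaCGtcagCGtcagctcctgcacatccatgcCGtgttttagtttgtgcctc
PARD6A start (chr16:67660710-67660959): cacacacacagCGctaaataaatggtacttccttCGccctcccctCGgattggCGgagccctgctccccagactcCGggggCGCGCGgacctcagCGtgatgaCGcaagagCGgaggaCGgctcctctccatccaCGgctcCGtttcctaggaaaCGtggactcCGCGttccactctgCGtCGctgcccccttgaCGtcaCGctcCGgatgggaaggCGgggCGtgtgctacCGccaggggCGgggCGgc
SQSTM1 start 3 (chr5:179820655-179820904): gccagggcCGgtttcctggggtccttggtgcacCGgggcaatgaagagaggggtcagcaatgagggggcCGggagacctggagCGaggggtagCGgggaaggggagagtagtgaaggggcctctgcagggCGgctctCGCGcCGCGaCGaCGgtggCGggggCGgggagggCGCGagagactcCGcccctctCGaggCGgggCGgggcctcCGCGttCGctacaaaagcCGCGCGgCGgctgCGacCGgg
The PRKCZ start 1 window held 37 CpGs, a number reached by 4.00% of the 35116 windows in the table. The start 2 window held 12, close to the median of 11 over the table. PARD6A held 27 and the SQSTM1 start 3 window 29, both above the upper quartile of 23.

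The libraries differed in depth. The lowest local background of a list, which is the genome-wide mean pileup in the caller's model, was 2.92 for the control and 4.42 for the knockout, which puts the knockout at 1.51 times the depth. Levels are given below as pileup, the number of fragments over a peak's summit, and as relative pileup, the pileup divided by that lowest background. Over whole lists the median relative pileup was 8.55 in control and 8.14 in knockout cells. Of all control peaks, 12.1% overlapped no knockout peak, and of all knockout peaks 23.9% overlapped no control peak. The peak lists measure no RNA or protein, so neither the loss of PKCλ/ι nor expression of the 5 genes was checked here.

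PRKCZ was the gene most covered by methylation peaks, and SQSTM1 came next. Peaks lay over 66.1% of the PRKCZ span in control and 69.1% in knockout cells, and over 47.7% and 52.5% of the SQSTM1 span. The shares were 20.3% and 22.3% for PARD6A, 18.3% and 19.6% for PARD6B, and 9.91% and 11.7% for PARD3. Over whole lists peaks covered 4.87% of the length up to the last peak of each chromosome in control and 5.72% in knockout cells. The order of the 5 genes was the same in both genotypes, although PARD6A and PARD6B lay close together. The surroundings were rich in peaks too. In the 500 kb on each side of PRKCZ 40.3% of the sequence lay under control peaks, and for SQSTM1 this was 22.4%. None of 1718 windows of PRKCZ's length along chromosome 1 was covered to the same extent in the control. For SQSTM1, 9 of 4306 such windows on chromosome 5 were covered as much, and for PARD3 27 of 189 on chromosome 10. Windows covered as much as PARD6A numbered 1271 of 7523 on chromosome 16, and as much as PARD6B 203 of 1797 on chromosome 20.

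**Figure D1:**
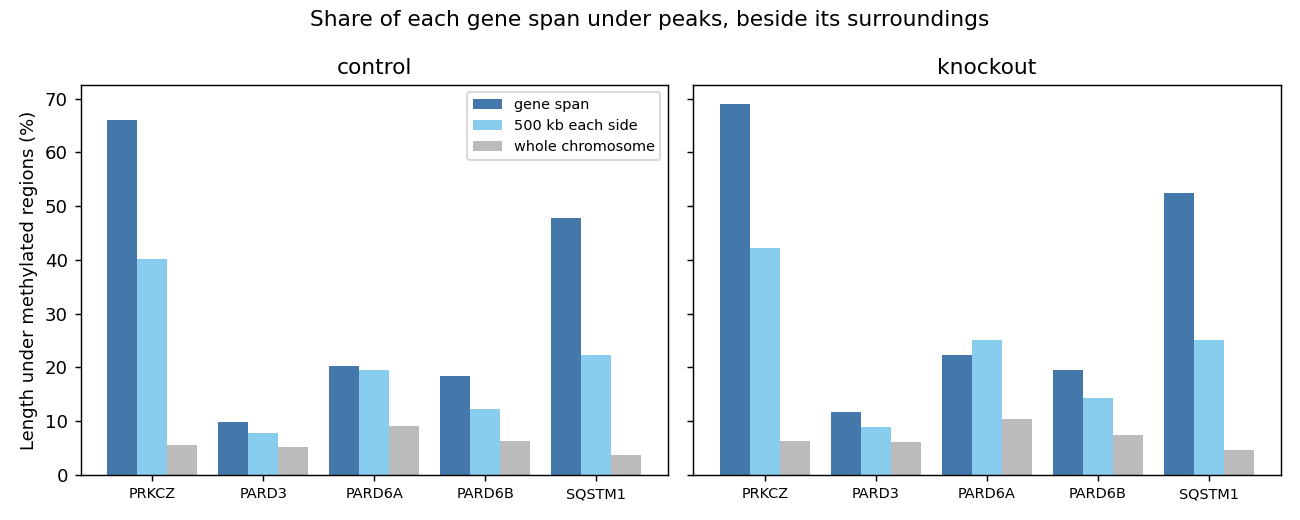
Share of length under peaks (%, vertical axis) for the span of each gene, the 500 kb on each side and its whole chromosome, in the control (left) and the knockout (right). PRKCZ reaches 66.1% and 69.1%, above its surroundings in both lists, whereas PARD6A at 20.3% and 22.3% is close to its own.

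PRKCZ encodes protein kinase Cζ, the other atypical isoform, and peaks covered most of its body. RefSeq places FAAP20, PRKCZ-AS1 and PRKCZ-DT over parts of PRKCZ in GRCh38, so peaks there may belong to those genes. The control listed 77 peaks (95% Poisson interval 60.8 to 96.2) and the knockout 78 (61.7 to 97.3). In each list 75 of them overlapped a peak of the other, so the intervals measure no spread between the lists. Control peaks had a median length of 853 bp and knockout peaks one of 984 bp, whereas whole lists had 458 and 464 bp. Peaks of 2 kb or more numbered 13 in control and 16 in knockout cells, whereas such peaks made up 1.2% and 1.54% of the lists. The widest ran for 5756 bp in the control (chr1:2002207-2007962) and for 5721 bp in the knockout (chr1:2002093-2007813). Relative pileup had a median of 12.3 in control and 14.0 in knockout cells, above the medians of the lists. In the 500 kb on each side it was 12.3 and 12.7, so control peaks of the gene were as high as those around it. The local background was raised as well, at 1.71 and 2.04 times the lowest in the control and knockout, and the authors' fold enrichment had medians of 5.81 and 6.17. The part of the background in the peak heights was not tested.

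Start 1 of PRKCZ lay in a gap between peaks in both genotypes. Start positions in hg19 are approximate here, since they come from the span's edge less its 5 kb. Around 1.982 Mb no peak of either list lay from -1.16 to 0.781 kb, where minus is upstream. In the knockout the peak-free stretch was longer, at 3.57 kb against 1.98 kb in the control. The difference was a single weak control peak at chr1:1980503-1980838. It had 20 fragments at its summit and a fold of 3.31, and no knockout peak lay within 1 kb of it. Downstream, the peak at chr1:1982815-1983428 had a pileup of 44 in control and 76 in knockout cells, or 15.0 and 17.2 relative to the lists. The next, at chr1:1983547-1983852, had 23 and 39. Beyond it, chr1:1983941-1984948 had 23 in control and 61 in knockout cells, a relative pileup of 7.87 and 13.8 and a depth-scaled log2 ratio of 0.81 (0.10 to 1.57). It was the highest ratio among the 51 peak pairs of PRKCZ, a choice that its interval does not allow for. Its knockout partner began just past the 2 kb that bounded the promoter. Within 2 kb of the start there were thus 4 control and 2 knockout peaks, of which the window's edge set 1. With a −log10 q of at least 10 the order turned, with 1 control and 2 knockout peaks, and within 1 kb each list held 1. Over whole lists, 57.0% of control and 74.5% of knockout peaks reached that cutoff, so the turn is no measure of the genotypes.

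The internal starts of PRKCZ lay at distances that were under peaks. In GRCh38 the starts 2, 3 and 4 follow start 1 by 23.3, 23.7 and 54.3 kb. They were placed on hg19 by these distances alone, on the assumption that the distances are the same in both builds, which was not checked. At 20.2 to 26.0 kb from the approximate start 1 lay the widest control peak of the gene, with a pileup of 64 in control and 99 in knockout cells. Relative to the lists this was 21.9 and 22.4, with a log2 ratio of 0.03 (-0.44 to 0.51). The distance of start 4 fell in a region from 52.4 to 55.5 kb whose highest pileups were 45 and 67, or 15.4 and 15.1 relative to the lists. The window richest in CpG was thus at the start without a peak. The distances of the other 3, with 12, 26 and 7 CpGs, were under peaks in both genotypes, so start 3 was CpG-rich and under a peak.

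**Figure D2:**
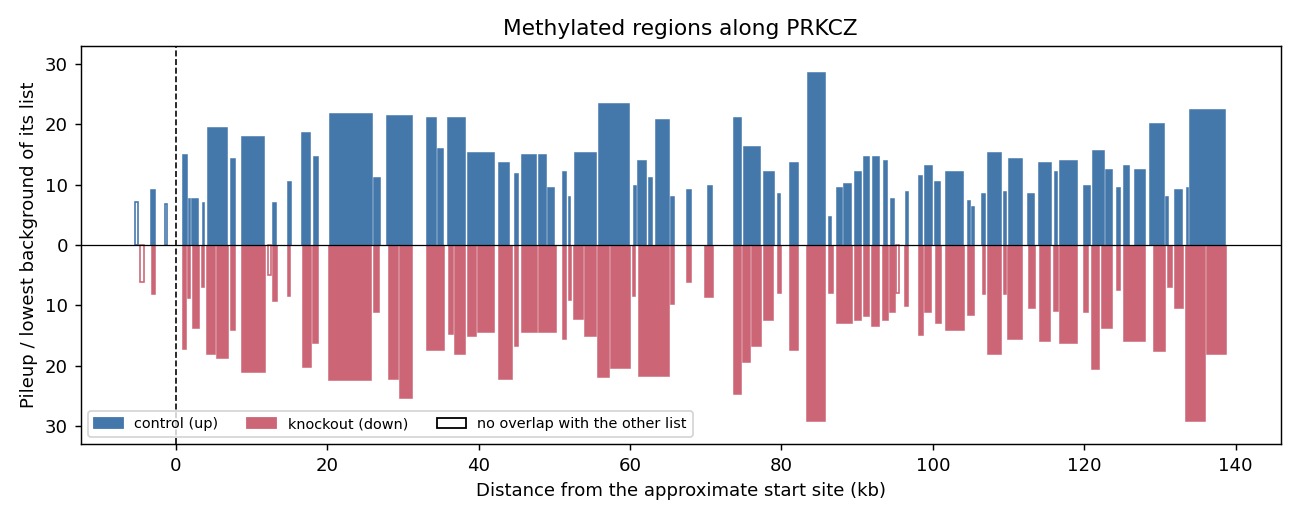
Peaks along PRKCZ, by distance from the approximate start (kb, horizontal axis) and relative pileup (vertical axis), with control bars upward and knockout bars downward. Bar width is peak length and open bars have no overlapping peak in the other list. Bars fill most of the gene and leave a gap at the dashed start.

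Within the PRKCZ body the strongest pairs had like relative levels in both genotypes, with intervals that include 0. At chr1:2065322-2067750, 84.6 kb from the start, the control pileup was 84 and the knockout pileup 129, or 28.7 and 29.2 relative to the lists (log2 ratio 0.02, -0.39 to 0.44). At chr1:2055624-2056705 they were 62 and 109, with a log2 ratio of 0.22 (-0.25 to 0.69). A region at chr1:2115354-2120709, 133.4 to 138.7 kb from the start, ran past the approximate end of the gene. It held 2 peaks in each list, and its highest pileups were 66 in control and 129 in knockout cells, a log2 ratio of 0.37. The body pairs furthest from equal went both ways, and their intervals do not allow for that choice. At chr1:2068170-2068498 the pileups were 14 and 35 (log2 ratio 0.72, -0.21 to 1.73). At chr1:2024582-2026020 they were 40 and 98 (0.69, 0.15 to 1.26), with a background of 3.17 times the lowest in control and 4.90 in knockout cells. At chr1:2049328-2050072, where the background was at its lowest in both lists, both were 27 (-0.60, -1.42 to 0.23), so this region was lower in the knockout relative to its list.

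Few PRKCZ peaks lacked any overlap with a peak of the other genotype. Control-only peaks numbered 2 of 77 (2.60%) and knockout-only peaks 3 of 78 (3.85%), below the 12.1% and 23.9% of the lists. This rests on a shared length of 1 bp between wide peaks. With 50% reciprocal overlap required, 16 control (20.8%) and 17 knockout peaks (21.8%) had no counterpart, against 21.6% and 30.8% of the lists. At 1 bp, none of the control-only and 2 of the knockout-only peaks lay in the body. These 2 were at chr1:2077142-2077532, with 35 fragments and a fold of 4.74, and at chr1:1994126-1994520, with 22 and 2.70. A control peak lay within 1 kb of each.

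PARD3 encodes the PAR3 scaffold, which recruits PAR6 and the kinase to the cell cortex, and it is transcribed toward lower coordinates of chromosome 10. Its peaks were short and of ordinary height. The control listed 143 (120.5 to 168.5) and the knockout 171 (146.3 to 198.6), with median lengths of 416 and 428 bp and median relative pileups of 7.87 and 7.46. None was 2 kb or longer. The background was close to the lowest, at medians of 1.03 and 1.06 times it.

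PARD3 alone had a peak over its start as placed here, and the control peak passed that position by only 0.083 kb. At chr10:35104917-35105723, from -0.723 to 0.083 kb of it (minus is upstream), the control pileup was 56 and the knockout pileup 66. Relative to the lists these were 19.2 and 14.9, the highest control value in the gene, and the log2 ratio was -0.36 (-0.90 to 0.18). Further upstream, chr10:35105998-35106396 had 31 and 57 (0.28, -0.37 to 0.96), and chr10:35106920-35107352 had 27 and 39 (-0.07, -0.81 to 0.70). All 3 promoter peaks were thus present in both genotypes, and every interval of their ratios included 0. The start is known here only to about the rounding of the span. Whether the start itself or the CpG-rich core of this promoter lay under the peak therefore could not be told, so a difference from the other genes is not settled. The RefSeq table held no window for this gene.

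Along PARD3 methylated regions were more frequent in the first 300 kb than in the next 400 kb. In steps of 100 kb from the start the control held 37, 28, 26, 13, 12, 10 and 11 peaks, and the knockout 43, 31, 32, 13, 20, 13 and 11. The last 7 kb of the gene were dense again in the control, with 3 peaks over 20.9% of their length. The knockout held 5 peaks past 700 kb, of which 1 lay beyond the approximate end of the gene. The first 100 kb held 17.9 kb of peaks in control and 21.7 kb in knockout cells, and the step from 300 to 400 kb held 5.13 and 5.43 kb. Median relative pileup of listed peaks in these steps stayed between 6.84 and 8.72 in the control and between 6.78 and 8.14 in the knockout. Regions too low to be listed have no height here, so the medians do not show the signal along the gene. No peak of either genotype lay from 638.5 to 680.4 kb, a gap of 41.9 kb that was the longest of the gene. Beyond it lay the body region with the highest mean level, chr10:34408299-34408881, with a pileup of 44 in control and 99 in knockout cells (log2 ratio 0.57, 0.05 to 1.12). Next came chr10:34641289-34642003 with 41 and 86 (0.47, -0.08 to 1.04) and chr10:34656840-34657696 with 46 and 73 (0.07, -0.48 to 0.63).

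**Figure D3:**
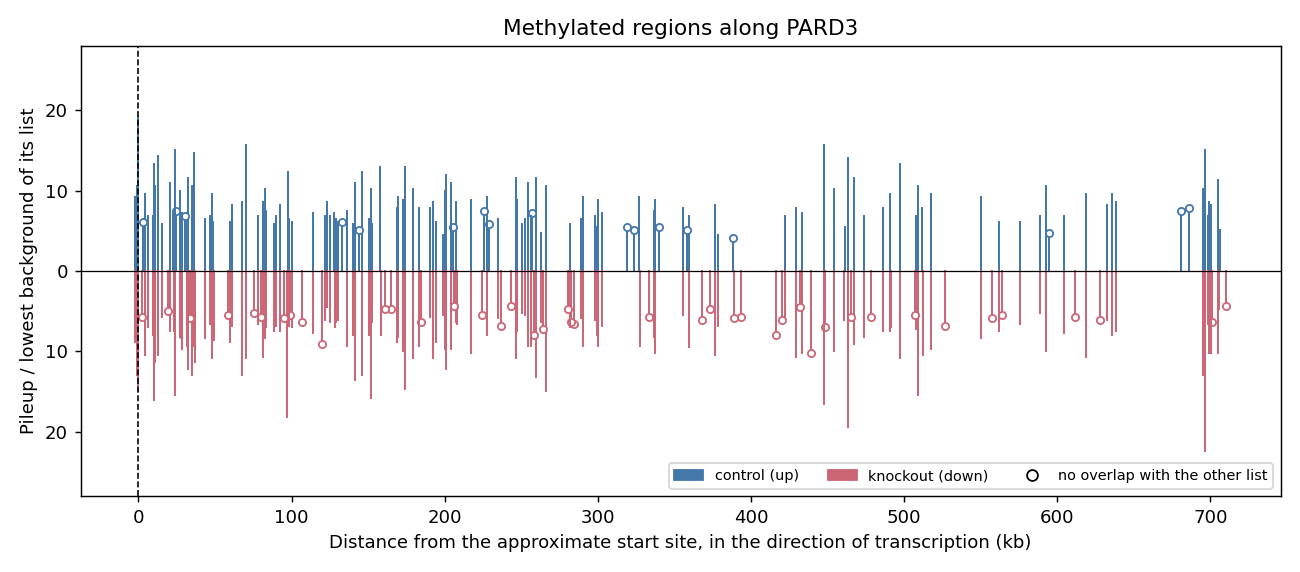
Peaks along PARD3, by distance from the approximate start (kb, horizontal axis) and relative pileup (vertical axis), with control lines upward and knockout lines downward. Open circles mark peaks with no overlap in the other list. The first 300 kb hold more lines than the next 400 kb, and there are none from 638.5 to 680.4 kb.

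The largest differences within pairs of the PARD3 body went both ways. At chr10:34981495-34982092 the pileup was 25 in control and 20 in knockout cells (log2 ratio -0.92, -1.84 to -0.01), and at chr10:34946753-34947195 it was 38 and 35 (-0.72, -1.42 to -0.02). At chr10:34952786-34953469 it was 30 and 70 (0.62, -0.01 to 1.29). These were the extremes of 120 body pairs, and their intervals do not allow for that choice.

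Peaks of PARD3 found in 1 list only had shares close to those of the lists. Control-only peaks numbered 17 of 143 (11.9%) and knockout-only peaks 42 of 171 (24.6%). These shares were above those of PRKCZ, but with 50% reciprocal overlap the control share was 16.8% in PARD3, below the 20.8% of PRKCZ, and the knockout share was 30.4%. In the PARD3 span, 3 of 17 control-only and 23 of 42 knockout-only peaks had a −log10 q of at least 10. Of all peaks, list-only or not, 57.0% in control and 74.5% in knockout cells reached it. The share among all list-only peaks was not computed, so whether those of PARD3 are unusual cannot be told. The control-only peaks with the highest fold were chr10:34418900-34419242 (pileup 23, fold 6.12), chr10:34878956-34879420 (22, 5.86) and chr10:34424251-34424612 (22, 5.59). Among the knockout-only peaks of the body, chr10:34665220-34665714 stood highest, with a pileup of 45 (32.8 to 60.2), a relative pileup of 10.2 and a fold of 8.48. It was followed by chr10:34688131-34688800 (35, 6.64) and chr10:34846280-34846719 (35, 6.31). Brought to the control's depth, the 45 fragments of the first would be 29.7. All 42 would still have reached the lowest significance of the control list at their summits, a test that 70208 of the 70955 knockout-only peaks of the whole list also met (23.7% of all knockout peaks) and that did not model the width a peak needs.

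PARD6A and PARD6B encode PAR6 adaptors, which hold the kinase next to PAR3 and CDC42. PARD6A is a short gene in a crowded stretch, where RefSeq places CARMIL2, ACD, ENKD1 and C16orf86 within 5 kb in GRCh38, so peaks in its flanks may belong to those genes. Its span held 4 control and 5 knockout peaks. No peak lay over the approximate start, and the first one downstream began 0.855 kb from it in control and 0.809 kb in knockout cells. This peak, chr16:67695855-67696645, lay inside the gene, with a pileup of 31 in control and 74 in knockout cells. Relative pileup was 10.6 and 16.7. The log2 ratio of 0.66 (0.03 to 1.31) was the highest of the gene, a choice that the interval does not allow for. The local background was also higher in the knockout there, at 2.55 times the lowest against 1.52, and the authors' fold was 5.87 in control and 6.10 in knockout cells. Its part in the ratio was not tested.

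The other PARD6A regions lay at or past the gene's end and differed less. At chr16:67697020-67697596 the pileups were 38 and 63 (log2 ratio 0.13, -0.47 to 0.75), and at chr16:67700840-67701556 they were 45 and 67 (-0.02, -0.59 to 0.55). The first of these regions counted as a promoter peak in the knockout only. Its knockout peak, chr16:67696994-67697501, began just inside the 2 kb window and its control peak just outside. A weak control-only peak with a pileup of 23 lay at chr16:67697695-67698049. Knockout-only peaks lay upstream at chr16:67691325-67691694 and chr16:67692100-67692495, with pileups of 34 and 43 and folds of 3.01 and 2.74. The background under the latter was 3.41 times the lowest.

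PARD6B had a start free of peaks over a longer stretch. No peak of either list lay from -2.19 to 1.54 kb of 49.348 Mb. The first downstream, chr20:49349584-49350032, was weak in the control with a pileup of 15, and reached 33 in the knockout (relative pileups 5.13 and 7.46, log2 ratio 0.54, -0.38 to 1.53). Of 12 control and 11 knockout peaks, 10 formed pairs and 5 of these lay above 0. The body pairs with the highest mean level were the following. At chr20:49372006-49372612 the pileups were 47 and 81 (0.19, -0.35 to 0.74), at chr20:49371262-49371721 they were 47 and 54 (-0.40, -0.99 to 0.20), and at chr20:49360126-49361065 they were 29 and 56 (0.35, -0.32 to 1.05). Nearer the start, chr20:49351458-49351784 had 22 and 40 (0.26, -0.52 to 1.09). All 10 intervals included 0. The body held 1 control-only peak, chr20:49369175-49369506 with 25 fragments at a fold of 6.63, and 1 knockout-only peak, chr20:49364597-49364938 with 26 and 4.73.

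SQSTM1 had 21 peaks in each list. RefSeq places MGAT4B over its start 1 and MRNIP over its end in GRCh38, so peaks there may belong to those genes. No peak lay from -1.16 to 1.61 kb of the approximate start 1 at 179.233 Mb. Just past that gap, chr5:179234609-179235706 had a pileup of 69 in control and 113 in knockout cells. The control reached 69 again at chr5:179242585-179246130, where 3 control peaks met 1 knockout peak of 96, and nowhere more in the span. At the first of these regions relative pileups of 23.6 and 25.5 gave a log2 ratio of 0.11 (-0.33 to 0.57). A weak control-only peak upstream, chr5:179231468-179231838, reached a pileup of only 24, at a fold of 3.81.

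A knockout-only peak lay near the position of SQSTM1 start 3, which in GRCh38 follows start 1 by 14.5 kb. In hg19 the knockout list held a peak from 14.2 to 14.5 kb after the approximate start 1, at chr5:179247189-179247541, whereas the control list held none from 13.1 to 17.7 kb. Its pileup was 44 (32.0 to 59.1), a relative pileup of 9.95, with a fold of 4.26 over a background of 2.16 times the lowest. At the control's depth it would be 29.1 fragments. The start was placed by distance only, so whether the peak covers the CpG-rich window printed above or lies beside it could not be told. From 14.5 to 17.4 kb neither list held a peak, and the next, chr5:179250660-179251430, had pileups of 53 and 71 (log2 ratio -0.18, -0.71 to 0.37). The other knockout-only peak of the gene, chr5:179264254-179264665, had 29 fragments and a fold of 4.30, with a control peak within 1 kb. Knockout-only peaks were 2 of 21 (9.52%) and control-only peaks 1 of 21 (4.76%), below the 23.9% and 12.1% of the lists. With 50% reciprocal overlap each list had 5 of 21 (23.8%), against 30.8% of all knockout and 21.6% of all control peaks.

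Most paired SQSTM1 regions had a ratio above 0. The median log2 ratio of its 16 pairs was 0.32 (0.05 to 0.44), or 1.25-fold, and 13 of 16 pairs lay above 0. Genome-wide, pairs had a median of 0.04 and 54.6% lay above 0. The median was 0.10 both for chromosome 5, with 62.4% above 0, and for the 500 kb on each side of the gene, with 61.4%. The 9 body pairs alone had a median of 0.32 (0.05 to 0.38), with 8 above 0. The highest of them by level, chr5:179238483-179239881, had pileups of 48 and 80 (0.14, -0.39 to 0.69). Among the others chr5:179261744-179262783 had pileups of 36 and 74 (0.44, -0.15 to 1.06) and chr5:179235870-179237296 had 39 and 77 (0.38, -0.19 to 0.98). Next, chr5:179259826-179260611 had 28 and 54 (0.35, -0.33 to 1.06) and chr5:179258467-179259680 had 43 and 81 (0.32, -0.24 to 0.88). Every body interval included 0. The highest knockout pileup of the span, 136, was at chr5:179228052-179229882 in the upstream flank, against 59 in the control (0.61, 0.16 to 1.07). All 3 SQSTM1 pairs over 1.5-fold higher lay in the flanks, the others at chr5:179267637-179268203 with 25 and 62 (0.71, 0.02 to 1.44) and chr5:179268674-179270261 with 32 and 74 (0.61, -0.005 to 1.26). Intervals of these 3 do not allow for their choice by ratio. With the authors' fold in place of pileup the median of the 16 pairs was 0.15. The pairs are neighbours on 1 chromosome of the same libraries and are not replicates.

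**Figure D4:**
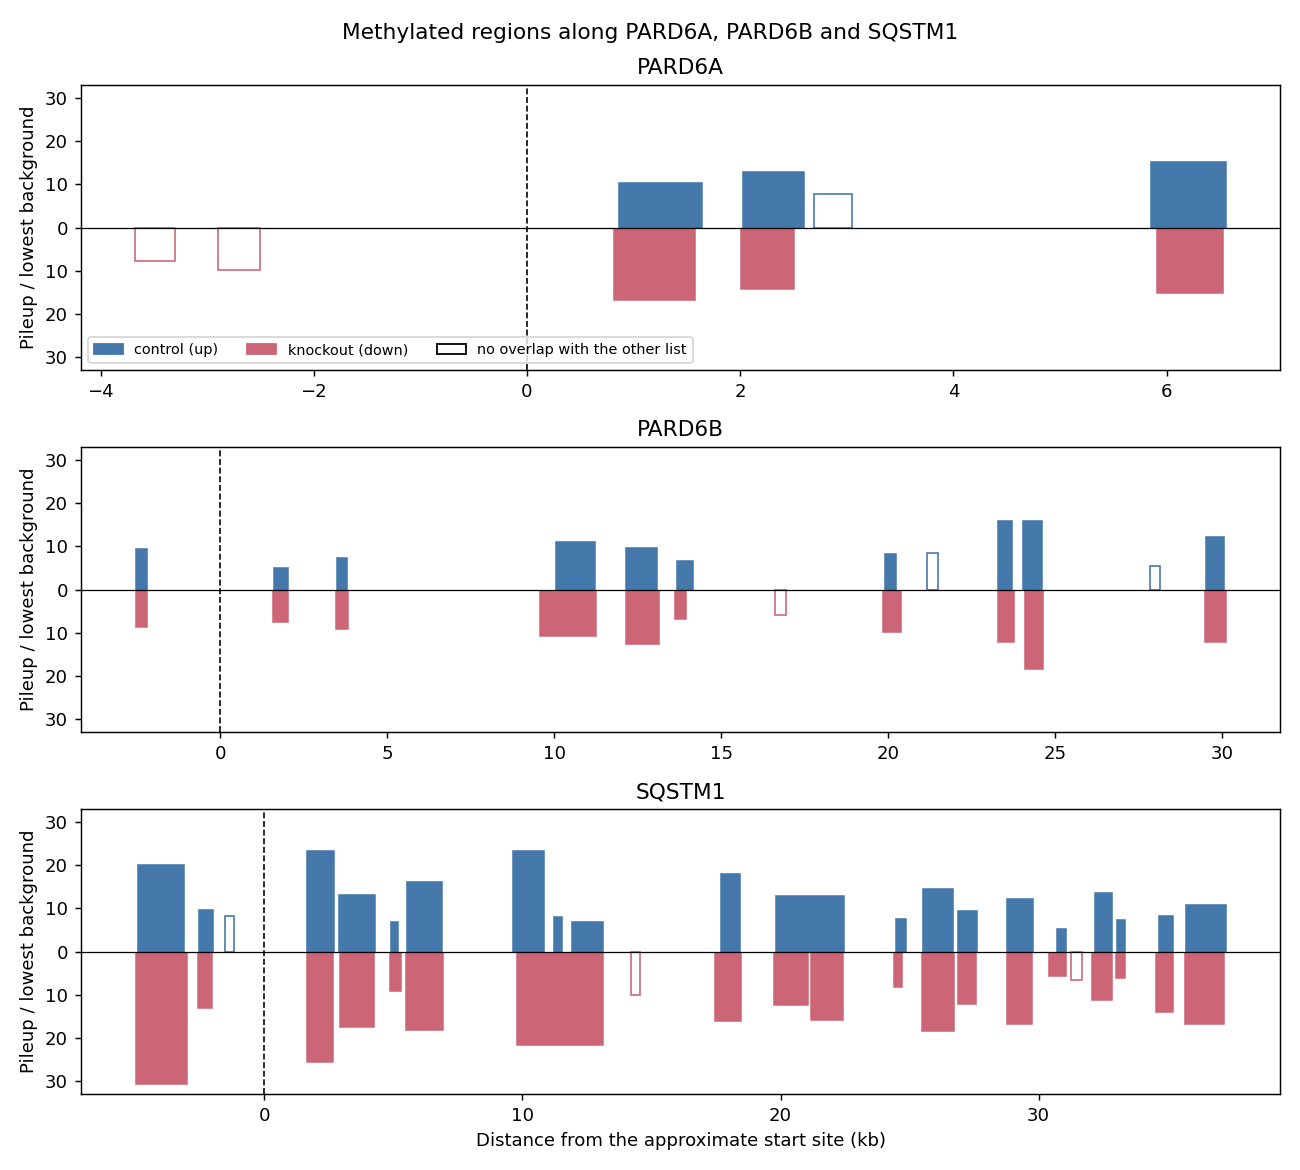
Peaks along PARD6A, PARD6B and SQSTM1, by distance from the approximate start (kb, horizontal axis) and relative pileup (vertical axis), with control bars upward and knockout bars downward. Open bars have no overlap in the other list, and all 3 dashed starts lie in gaps.

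Across the 5 genes 203 pairs had a median log2 ratio of 0.10 (0.03 to 0.16), against 0.04 over 206556 pairs of the genome. PRKCZ had 0.12 (-0.04 to 0.19) over 51 pairs, PARD3 0.07 (0.005 to 0.16) over 123, PARD6A 0.13 over 3, with a range of -0.02 to 0.66, and PARD6B 0.09 (-0.16 to 0.35) over 10. In the 500 kb on each side the median was 0.03 for PRKCZ, 0.05 for PARD3, 0.20 for PARD6A and -0.01 for PARD6B. The SD of the ratios was 0.29 in PRKCZ and 0.30 in PARD3, against 0.34 over the genome. Over 1.5-fold higher in the knockout were 10 of 203 pairs (4.93%), and 3 (1.48%) were over 1.5-fold lower. Over the genome these shares were 5.14% and 3.6%. The 10 were 3 each in PRKCZ, PARD3 and SQSTM1 and 1 in PARD6A, and the 3 were 2 in PARD3 and 1 in PRKCZ. PRKCZ changed sign with the authors' fold in place of pileup, at -0.09, and so did PARD6A, at -0.40. In both the background was higher in the knockout, with a median log2 ratio of 0.23 over the PRKCZ pairs and 0.74 over the 3 PARD6A pairs, against 0.03 over the genome. Pairs hold only regions listed once in each genotype. Another 15 regions of PRKCZ, 3 of PARD3 and 2 of SQSTM1 held more than 1 peak in at least 1 of the lists.

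**Figure D5:**
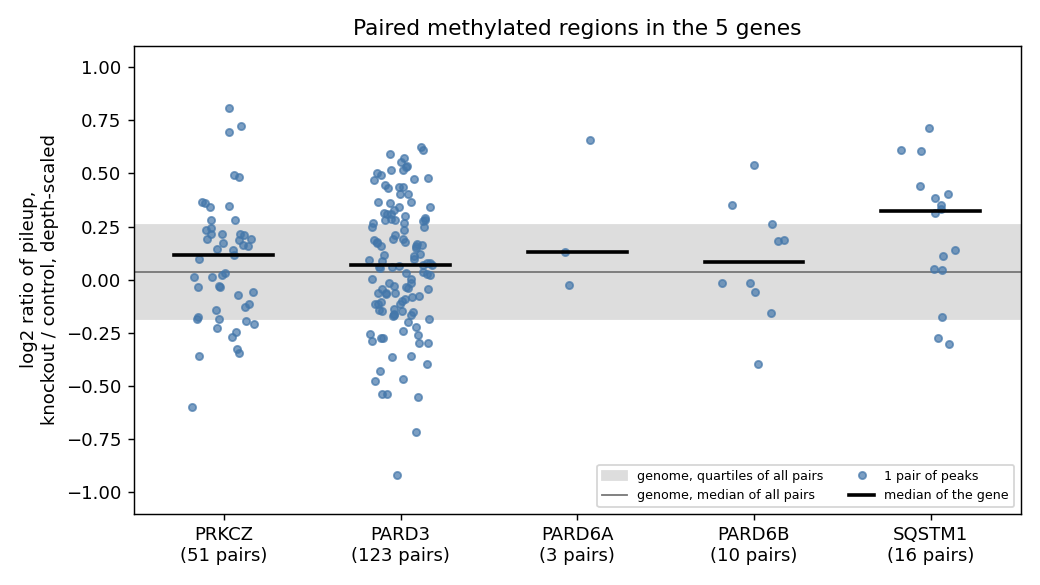
Ratio of knockout to control pileup after depth scaling, as log2 (vertical axis), for each pair of peaks (points) in the 5 genes, with each gene's median (black) and the genome's median and quartiles (grey). Medians run from 0.07 in PARD3 to 0.32 in SQSTM1, and the points of every gene lie on both sides of 0. The grey band is the spread of single pairs and no yardstick for a median.

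Most methylated regions of the 5 genes were listed in both genotypes. Of the 257 control peaks 23 (8.95%) and of the 286 knockout peaks 50 (17.5%) had no overlap in the other list, against the 12.1% and 23.9% given above. Within 2 kb of the approximate starts lay 11 control and 9 knockout peaks, of which 2 control peaks and no knockout peak were list-only. At a −log10 q of at least 10 they numbered 6 and 9, a cutoff that 57.0% of all control and 74.5% of all knockout peaks reached. Internal starts were left out of these counts. The knockout-only peak near an internal start of SQSTM1, described above, is therefore not among them.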

How the data were processed

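Reads were aligned with BWA to hg19, checked with FastQC and turned into peaks by MACS2, per the submitters' processing notes, whose settings and versions are not given in the sources used here. Each deposited list comes from 1 immunoprecipitated library and was matched to its sample by the genotype and antibody words of its name. The pileup signal at the summit was not scaled between libraries by the authors. Fold enrichment as deposited is a ratio, pileup against local background with 1 added to each. Significance was deposited per peak as −log10 p and −log10 q. These per-peak values were used only to describe or filter peaks within their list.

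The local background was recomputed from pileup and fold, and log2 ratios of pileup were scaled by the ratio of the lowest backgrounds, since library totals were not listed. Peaks sharing 1 bp overlapped, and peaks overlapping exactly 1 peak each formed pairs. Promoter peaks lay within 2 kb of the approximate start, the span's edge less 5 kb. Intervals are at 95%: exact Poisson for counts, Clopper-Pearson for ratios of pileups and order-statistic for medians. For numbers of peaks the Poisson interval takes peaks as independent events and measures neither calling error nor spread between libraries. The text names every promoter peak and, per gene body, up to 3 pairs of highest mean level, 3 of largest ratio and 3 list-only peaks per list with the highest fold. The neighbourhood of alternative starts, the broadest peaks, the 100 kb steps and peaks in the flanks were chosen after their values were seen. The members and lists were chosen with earlier results of these data known. Other genes of the polarity pathway and other kinases C were not analysed here, since no annotation of hg19 was used. Python 3.11.15, scipy 1.17.1 and pandas 2.3.3 were used, and matching and scaling were tested on simulated data.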

Additional observations from a re-analysis of the deposited data

How the results depend on the processing

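Counts were held to 1.5 times and log2 medians to 1 SD of the pairs. Among alternatives for results summed over the 5 genes, 14 stayed within these bounds and 13 left them, all of them counts. Among those for single genes, 88 stayed within and 47 left. With −log10 q of at least 10 control peaks numbered 159, and with a fold of at least 5 they numbered 168. Promoter peaks numbered 4 in each list at 1 kb around the start, 25 in control and 24 in knockout cells at 5 kb, and 6 in control and 9 in knockout cells at −log10 q of at least 10, which turns the order of the 11 and 9 given above. With 50% reciprocal overlap, list-only peaks numbered 48 of 257 in control and 77 of 286 in knockout cells, against 21.6% and 30.8% of the lists. With no other peak within 1 kb they were 12 and 31, and with −log10 q of at least 10 they were 4 and 27. Whole-list shares of list-only peaks were not computed for these settings, so the counts do not compare the genotypes. Smaller windows and stricter thresholds give fewer peaks by construction. Of all peaks, 57.0% in control and 74.5% in knockout cells reached a −log10 q of at least 10. The median log2 ratio over the 5 genes ran from 0.05 to 0.10. Single genes changed sign with the authors' fold (PRKCZ and PARD6A, given above), and PARD6B was -0.01 with −log10 q of at least 10 in both lists. The cause was not tested. For SQSTM1 the median ran from 0.15 to 0.35. Start sites are rounded and depth is known only as a ratio. No paired analysis was possible because a genotype has a single captured library.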
